A study of Mus musculus with 2 samples.

Results

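Interleukin-6 (IL-6) family signaling and 2 secreted inflammatory products, osteopontin and lipocalin 2, were followed in GL261 cells through 9 of the 32285 genes counted. The 9 genes are the ligands Il6, Il11 and Lif, the receptor chains Il6st and Osmr, the transcription factor Stat3, the inhibitor Socs3, and the secreted products Spp1 and Lcn2. They were chosen on measured values, namely their raw counts in both cultures and their joint presence in single cells, so their levels and co-detection are given as a description. GL261 is a mouse glioma line from C57BL/6, labelled as astrocytoma. Adherent cells were grown in DMEM with serum and antibiotics and passaged before confluence. Neurosphere cells were grown for 12 days in the same medium with Epidermal Growth Factor and Fibroblast Growth Factor, each at 20 ng/ml, and with B-27 diluted 1:50. Each culture gave 1 single-cell library from the 10x Genomics platform, so the culture, its added factors, its dissociation and its library cannot be told apart.

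Ligands of the IL-6 family bind a ligand-specific receptor chain and then the shared chain gp130, which is encoded by Il6st. Bound gp130 activates Jak kinases, these phosphorylate Stat3, and Stat3 enters the nucleus and switches on genes that include Socs3, whose product in turn blocks the receptor. In glioma and in reactive astrocytes this pathway is known for its link to inflammation and to mesenchymal gene expression. Osteopontin (Spp1) is a secreted ligand of integrins and Cd44, and lipocalin 2 (Lcn2) is a secreted acute-phase protein that binds iron-carrying siderophores.

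The library of adherent cells held 5764 called cells and that of neurosphere cells 4951, of which 5051 and 4276 passed the cell filter with 46290996 and 64943938 unique molecular identifiers (UMIs, counted molecules) on the genes kept. The median depth was 8260 UMIs per adherent cell and 13198.5 per neurosphere cell, so shares of cells with a UMI are also given after each cell was thinned to 5000 UMIs, which left 4464 and 4196 cells. Levels are given as CPM, the UMIs of a gene scaled to 1000000 UMIs per library, and fold changes are the neurosphere level over the adherent level with exact 95% intervals. These intervals cover counting error only, no difference has a replicate check, and no test was run. Both libraries shared 12 cell barcodes, and leaving these cells out shifted no log2 fold change of the 9 genes by more than 0.011. Glioma markers were present in both libraries, with Vim at 5583 and 1763 CPM, Sox2 at 208.9 and 180.2 CPM, Nes at 104.2 and 200.7 CPM and S100b at 160.7 and 254.6 CPM. Of the astrocyte markers, Slc1a3 was present at 370.4 and 80.5 CPM and Aldh1l1 at 3.63 and 5.39 CPM, while Gfap (30 and 27 UMIs) and Slc1a2 (4 and 2 UMIs) were low and Aqp4 and Sox9 had 0 UMIs in both. Of the defining immune markers, Ptprc was at 1 and 0 UMIs and Tyrobp, C1qa, Ly6g, Elane and Ltf at 0, but others were present at low levels. The 12 macrophage and microglia markers summed to 15.7 and 7.10 CPM, of which Cd68 made up 10.5 and 4.25 CPM, Lyz2 2.57 and 0.524 CPM and Cx3cr1 2.23 and 1.48 CPM. The 10 neutrophil markers summed to 3.09 and 1.43 CPM, with S100a8 at 98 and 3 UMIs and Camp at 29 and 79 UMIs, and the part of such cells or transcripts in the levels of the 9 genes was not tested.

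Stretches of the promoters are shown first for the ligands, Socs3 and both secreted genes, the 6 of the 9 genes whose promoters held letters of a motif searched. All are RefSeq sequences on GRCm38.p6, read 5′ to 3′ on the strand of the gene. Capitals mark matches, on either strand, to TTCNNNGAA for STAT factors, TGANTCA for AP-1, TTNNGCAA for C/EBP factors, GGG and TTCC with any 3 bases between them for NF-kB, or TATAAA for a TATA box. A match describes the letters only and is not a binding site. Il6 lies at chr5:30013114-30019981 on the plus strand, and the 250 bases before its start, chr5:30012864-30013113, hold an AP-1, a C/EBP and an NF-kB match.
Il6: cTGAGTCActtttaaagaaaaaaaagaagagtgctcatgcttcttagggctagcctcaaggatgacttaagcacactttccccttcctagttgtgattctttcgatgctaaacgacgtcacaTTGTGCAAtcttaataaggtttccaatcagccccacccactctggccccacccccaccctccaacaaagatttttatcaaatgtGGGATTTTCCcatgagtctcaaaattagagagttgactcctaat
Il11 lies at chr7:4772373-4782859 on the minus strand, and the 250 bases before the more downstream of its 2 RefSeq starts, chr7:4778142-4778391, hold an AP-1 match from base -98 to base -92.
Il11: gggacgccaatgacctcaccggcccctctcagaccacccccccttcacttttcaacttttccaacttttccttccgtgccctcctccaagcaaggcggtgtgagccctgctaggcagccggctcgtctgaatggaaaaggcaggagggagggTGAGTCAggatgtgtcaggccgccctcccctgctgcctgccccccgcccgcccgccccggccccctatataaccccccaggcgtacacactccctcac
Spp1 lies at chr5:104435118-104441050 on the plus strand, and the 250 bases before the more upstream of its 2 RefSeq starts, chr5:104434861-104435110, hold a TATA match from base -211 to base -206.
Spp1: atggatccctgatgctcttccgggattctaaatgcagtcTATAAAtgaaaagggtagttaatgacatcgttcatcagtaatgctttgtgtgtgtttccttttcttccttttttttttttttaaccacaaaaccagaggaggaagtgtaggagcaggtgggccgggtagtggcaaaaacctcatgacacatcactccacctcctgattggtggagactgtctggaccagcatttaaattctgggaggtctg
The windows of Socs3, Lcn2 and Lif overlap exons of other GENCODE transcripts, so only the 30 bases around a match are shown, which for Lcn2 still lie wholly in an exon of such a transcript. Those of Socs3 are chr11:117969501-117969530 on the minus strand with the STAT match, and those of Lcn2 are chr2:32387937-32387966 on the minus strand with a C/EBP match. Those of Lif are chr11:4257329-4257358 on the plus strand with an AP-1 match.
Socs3: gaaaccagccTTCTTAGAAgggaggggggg
Lcn2: agcccttcctgTTGCTCAAccttgcacagt
Lif: ccagtcagctgTGACTCAggccatagtggc
Among 32851 windows of 250 bases before a RefSeq start, 7.02% held the STAT letters, 6.75% the AP-1 letters, 9.56% the C/EBP letters, 4.65% the NF-kB letters and 12.4% the TATA letters. The 9 genes had 11 windows, in which STAT letters were found for 1 gene (Socs3) and AP-1 letters for 3 genes (Il6, Il11 and Lif). C/EBP letters were found for 3 (Il6, Spp1 and Lcn2), NF-kB letters for 1 (Il6) and TATA letters for 1 (Spp1). The windows of Il6st, Osmr and Stat3 held none of these letters, and all 250 bases of the Osmr window lie in exons of other GENCODE transcripts.

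Of the 9 genes, the 8 with 50 or more UMIs in both libraries together were set against the 2-fold limit, and Lif, with 47 UMIs, was not. None was over 2-fold higher in neurosphere cells, where 21.7% of 14654 genes were, and 4 (Il6, Il11, Osmr and Spp1) were over 2-fold lower, where 11.7% of the genes were. The median log2 fold change was -1.70 over the 8 genes and 0.32 over all 14654. As the genes were chosen on these levels, nothing is read from the difference.

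**Figure D1:**
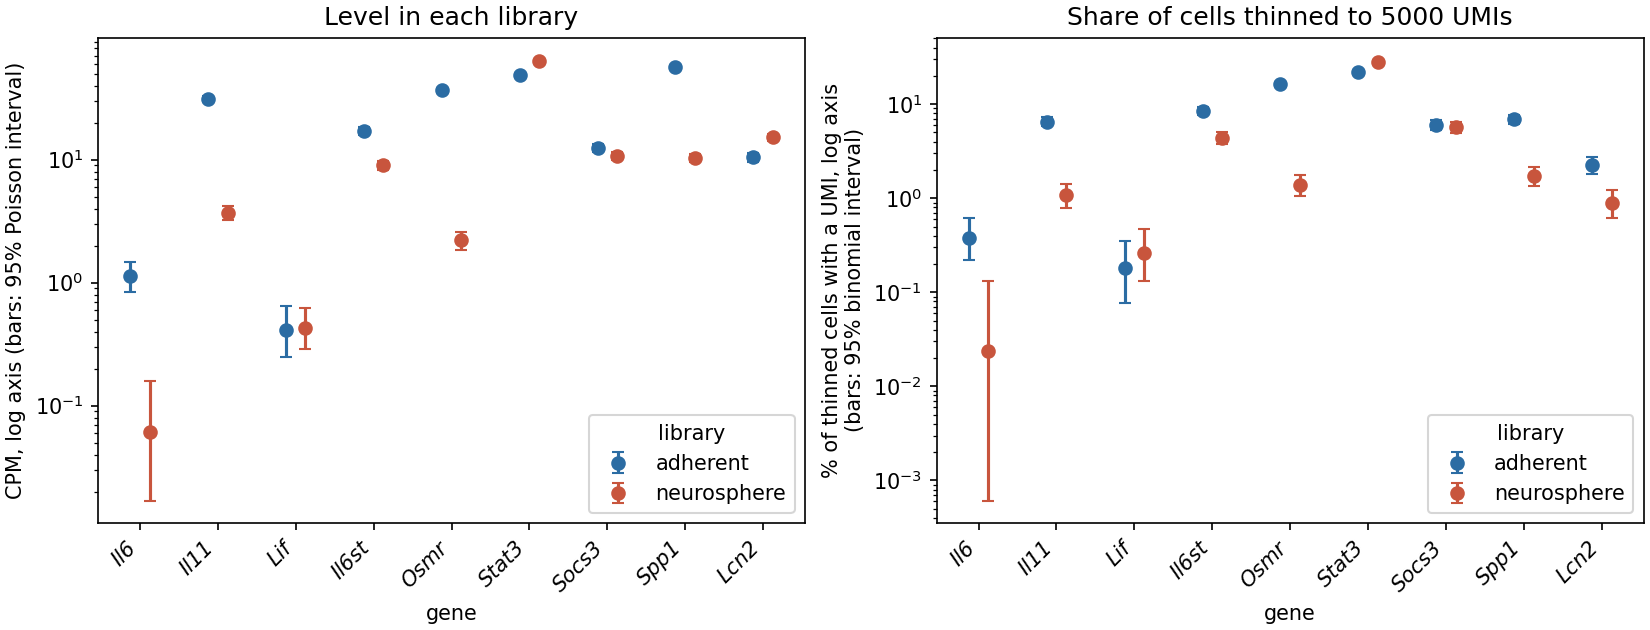
Levels of the 9 genes in the library of adherent cells (blue) and of neurosphere cells (red). The left panel gives CPM over kept cells with Poisson 95% intervals and the right panel the percentage of cells with a UMI after thinning to 5000 UMIs with binomial 95% intervals, both on log axes. Osmr, Il11, Il6 and Spp1 stand lower in neurosphere cells in both panels, while Lcn2 is higher in CPM (15.2 against 10.4) and lower in its share of cells (0.882% against 2.24%).

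Of the ligands, Il11 and Il6 were lower in neurosphere cells, while Lif was too rare in both to tell. Il11, which encodes a cytokine of the family that acts through gp130, had 1441 UMIs in the adherent and 238 in the neurosphere library (31.1 and 3.66 CPM), a log2 fold change of -3.09 [-3.29, -2.89]. Its share of thinned cells with a UMI was 6.52% and 1.07%. Il6, the founding cytokine of the family, was rare in both, with 52 UMIs over 47 adherent cells but 4 UMIs over 2 neurosphere cells. Its log2 fold change was -4.19 [-6.12, -2.75], and with 1 CPM added to both levels it was -1.0001. Lif, which encodes leukemia inhibitory factor, had 19 and 28 UMIs (0.410 and 0.431 CPM), and the interval of its log2 fold change ran from -0.82 to 0.99. No difference in Lif was detectable at this depth.

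The receptor chains were lower in neurosphere cells to unequal degrees. Osmr, which encodes the oncostatin M receptor chain that pairs with gp130, had 1687 UMIs in the adherent and 143 in the neurosphere library (36.4 and 2.20 CPM), a log2 fold change of -4.05 [-4.31, -3.80]. A UMI of Osmr was found in 16.3% of thinned adherent cells and in 1.38% of thinned neurosphere cells. Il6st had 794 and 583 UMIs (17.2 and 8.98 CPM), a log2 fold change of -0.93 [-1.09, -0.78], and was found in 8.38% and 4.36% of thinned cells. Il6st lay close to the 2-fold limit and passed it under TMM scaling of the library totals (-1.15) and with each cell weighted equally (-1.09), and it was at -0.9999 after thinning.

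The transducer and its inhibitor stayed within the 2-fold limit. Stat3 had 2256 UMIs in the adherent and 4076 in the neurosphere library (48.7 and 62.8 CPM), a log2 fold change of 0.36 [0.29, 0.44]. The median of all genes lay at 0.32, so Stat3 was 0.04 above that median. A UMI of Stat3 was found in 22.0% [20.8, 23.3] of thinned adherent and 28.2% [26.9, 29.6] of thinned neurosphere cells. These intervals are apart, and the log2 fold change of Stat3 after thinning was 0.47. Socs3, whose product binds gp130 and Jak kinases and shuts the pathway off, had 575 and 694 UMIs (12.4 and 10.7 CPM), a log2 fold change of -0.22 [-0.38, -0.06] that was 0.0022 with the total taken over all genes, mitochondrial and ribosomal ones included. Thinned cells with a UMI of Socs3 made up 6.00% and 5.67%, with overlapping intervals. The end of Stat3 (chr11:100885098-100939540, minus strand) overlaps that of Stat5a on the opposite strand, and Spp1 overlaps Gm42793, which is not among the genes counted, on its own strand.

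Of the secreted products, Spp1 was lower in neurosphere cells, while the order for Lcn2 depended on the measure. Spp1 had 2634 UMIs in the adherent and 672 in the neurosphere library (56.9 and 10.3 CPM), a log2 fold change of -2.46 [-2.58, -2.34]. Lcn2 had 483 and 987 UMIs (10.4 and 15.2 CPM), a log2 fold change of 0.54 [0.38, 0.70] that was -1.31 when a cell was allowed to give at most 10 UMIs of the gene. The share of thinned cells with a UMI of Lcn2 was lower in neurosphere cells, at 0.882% against 2.24%. No order of the cultures is read for Lcn2, since its share of cells goes against its CPM. With the same cap, Spp1 was at -2.26 and Il11 at -2.98.

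The rest of the family, from lists of pathway genes counted without the 9 genes, moved in both directions. Over all 14654 genes, 21.7% were over 2-fold higher and 11.7% over 2-fold lower. No list was tested against these shares. Of 4 other ligand genes reported here with enough UMIs, 1 was over 2-fold lower and 1 over 2-fold higher in neurosphere cells, with a median log2 fold change of 0.15. Clcf1, a cytokine of the family, was the lower at 17.6 and 0.370 CPM (log2 -5.58). Ebi3, a subunit of interleukin-27, was at 0.972 and 3.20 CPM (log2 1.72), and Ctf1, cardiotrophin 1, at 7.09 and 12.5 CPM (log2 0.81). Among 5 other receptor genes, Lifr, the partner of gp130 for leukemia inhibitory factor, was over 2-fold higher at 2.23 and 12.2 CPM (log2 2.45). Il31ra was over 2-fold lower at 2.57 and 0.570 CPM, and Il11ra1, the specific chain for interleukin-11, was at 34.5 and 44.98 CPM (log2 0.38).

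For the counts that follow, 21.7% of all 14654 genes were over 2-fold higher and 11.7% over 2-fold lower. Signal transducers other than Stat3 had 2 of 10 genes reported here over 2-fold higher and none over 2-fold lower. These were Gab1, an adaptor of gp130 and growth factor receptors (10.3 and 35.2 CPM, log2 1.78), and Stat5b (8.58 and 18.9 CPM, log2 1.14). Jak1 had the lowest fold change of them (50.1 and 45.04 CPM, log2 -0.15). Of 14 other inhibitors, 4 were higher (Pias1, Socs7, Pias4 and Pias3, log2 1.09 to 1.23) and 2 lower, namely Socs2 at 23.7 and 4.19 CPM (log2 -2.50) and Cish at 2.31 and 0.862 CPM (log2 -1.42). Of 19 other genes known as Stat3 targets, 3 were higher (Hif1a, log2 2.18, Pim3, log2 1.31, and Bcl6, log2 1.24) and 4 lower. The lower targets were Timp1 at 605.0 and 82.0 CPM (log2 -2.88), Serpina3n at 73.8 and 21.7 CPM (log2 -1.77), and the transcription factors Cebpd (log2 -1.24) and Cebpb (log2 -1.07). Their median was -0.15, against 0.32 over all genes.

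Beside the next counts, too, stand the 11.7% of all 14654 genes over 2-fold lower and the 21.7% over 2-fold higher. Receptors of osteopontin had 5 of 10 genes over 2-fold lower, among them the integrin chains Itgb6 (log2 -5.24), Itga8 (log2 -4.83) and Itgb3 (log2 -3.32). The 2 over 2-fold higher were Itga9 (log2 1.48) and Itga4 (log2 1.04). Cd44 was at 106.4 and 54.4 CPM (log2 -0.97) and Itgb1 at 358.7 and 373.2 CPM (log2 0.06). The other genes of the osteopontin family, Ibsp, Dmp1, Mepe and Dspp, had at most 3 UMIs in a library. Of the genes that handle lipocalin 2 or iron, its receptor Slc22a17 was at 7.50 and 26.9 CPM (log2 1.85) and the transferrin receptor Tfrc at 22.6 and 48.4 CPM (log2 1.10), both over 2-fold higher. Of 4 other acute-phase and inflammatory genes, none was over 2-fold higher and 3 were over 2-fold lower, with Saa3 at 6.72 and 0.770 CPM (log2 -3.13), Serpina3n as above and Serpina3m at log2 -1.29. Of 15 known NF-kB target genes, 4 were higher (Ccl2, log2 4.64, Cxcl2, log2 3.56, Ccl7, log2 3.51, and Tnfaip3, log2 3.48) and Saa3 was lower. Of neurosphere cells, 0.140% had a UMI of Cxcl2, 0.257% of Ccl7, 1.64% of Ccl2 and 11.7% of Tnfaip3. The thinned share for Cxcl2 was 0.0672% in adherent and 0.0715% in neurosphere cells.

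**Figure D2:**
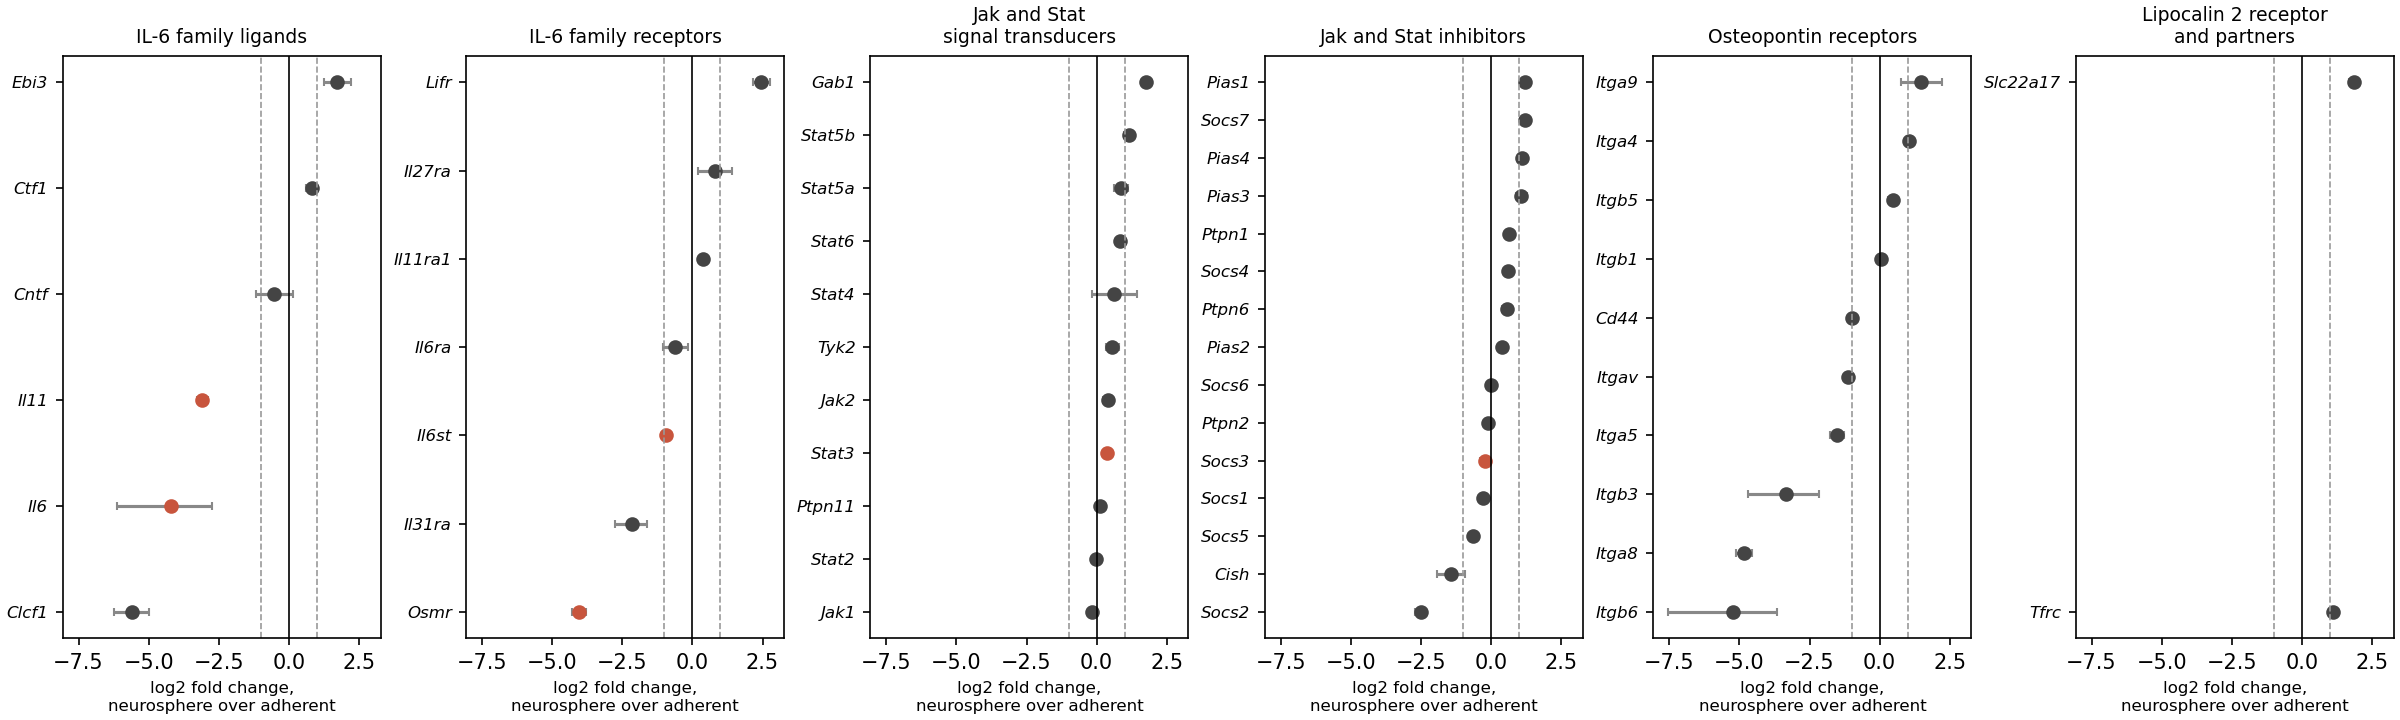
Log2 fold changes, neurosphere over adherent, of the listed genes with 50 or more UMIs in both libraries together, with exact 95% intervals for counting error. Red points mark members of the 9 genes, dashed lines mark the 2-fold limit, and Clcf1 (-5.58) lies lowest among the ligands shown while Lifr (2.45) lies highest among receptors.

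Early response genes, a sign of dissociation stress, also differed between the libraries, with summed levels of 1257 and 2185 CPM. In neurosphere cells 7 of 14 were over 2-fold higher and 3 over 2-fold lower, where 21.7% and 11.7% of all 14654 genes were. The part of this in the levels of Socs3, Lcn2 and the other genes was not tested. Fibroblast and pericyte markers summed to 3.59 and 385.1 CPM, of which Col1a1 held 329.0 and Dcn 55.5 CPM in neurosphere cells. The other markers of this list were rare in both libraries and did not move together. Pdgfrb (32 adherent and 4 neurosphere UMIs) and Acta2 (15 and 3 UMIs) were lower in neurosphere cells. Col1a2 (1 and 23 UMIs) and Rgs5 (1 and 9 UMIs) were higher. The part of these markers was not tested either.

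Spp1, Lcn2 and Il11 were carried by few cells. The largest count of Spp1 in an adherent cell was 219 UMIs, and the 49 adherent cells with at least 10 UMIs, of 490 with any, held 65.0% of its UMIs. In neurosphere cells, 11 such cells held 54.8% of the Spp1 UMIs, and the highest cell alone had 157. For Lcn2 the concentration was greater in neurosphere cells. There, 10 of 57 positive cells held 872 of 987 UMIs (88.3%), and the highest 4 cells had 214, 158, 155 and 136 UMIs, whereas the highest adherent cell had 54 and 11 adherent cells held 44.3%. Lcn2 made up 1.10% of all UMIs of the highest neurosphere cell. Il11 had up to 75 UMIs in an adherent cell, and 29 adherent cells held 39.7% of its UMIs. In adherent cells the share of positive cells with a single UMI was lower for Spp1, Il11 and Lcn2 than for the other genes. It was 51.0% for Spp1, 59.0% for Il11 and 62.7% for Lcn2. It was 75.8% for Stat3, 79.1% for Osmr, 89.8% for Il6st and 92.5% for Socs3. In neurosphere cells this share did not separate the genes, at 47.4% for Lcn2, 52% for Spp1 and 75.9% for Il11. There it was 57.6% for Stat3, 77.6% for Socs3, 89.9% for Il6st and 95.6% for Osmr.

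The ratio of variance to mean over thinned cells was also high for these genes. In adherent cells it was 17.3 for Spp1 (rank 5 of 11419 genes), 7.75 for Il11 (rank 13) and 6.33 for Lcn2 (rank 19), against a median of 1.04. In neurosphere cells it was 33.4 for Lcn2 (rank 6 of 11686), 10.4 for Spp1 (rank 30) and 2.45 for Il11 (rank 270), against a median of 1.06. Stat3 (1.08 and 1.18), Socs3 (1.06 and 1.18), Osmr (1.13 and 1.05) and Il6st (1.04 and 1.01) lay near the medians.

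**Figure D3:**
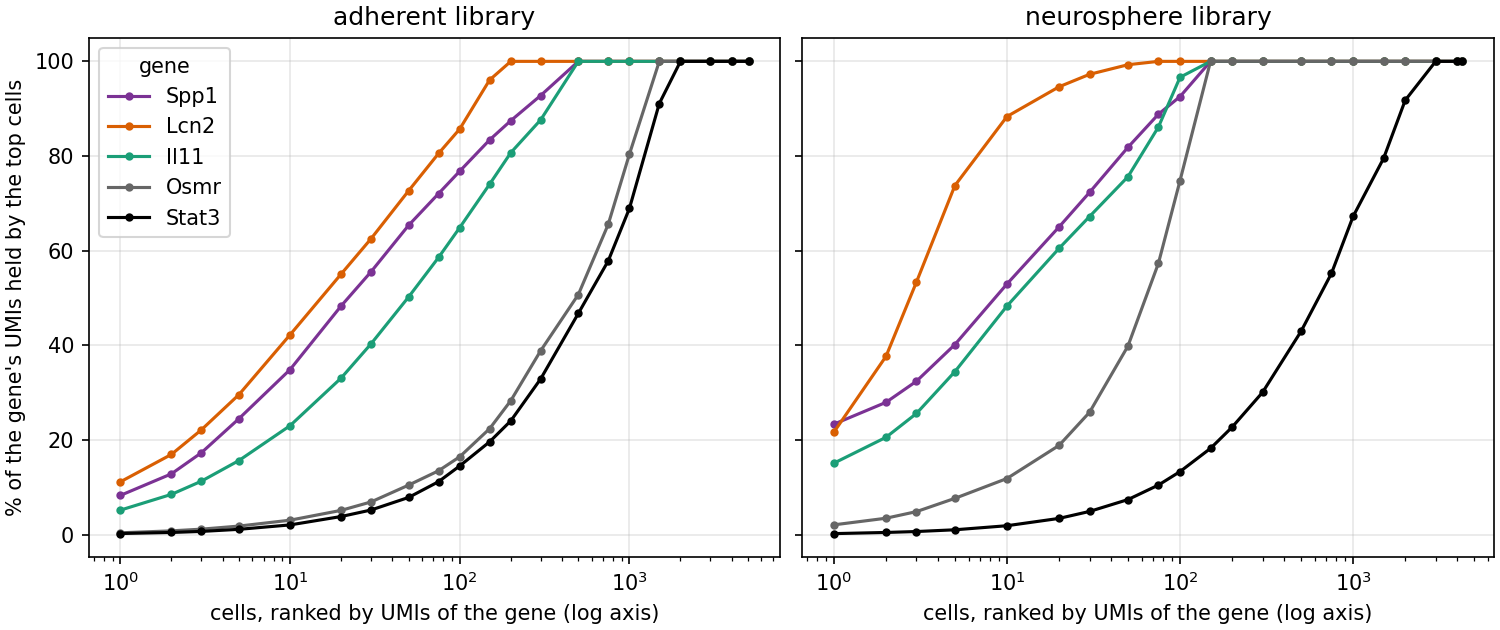
Percentage of a gene's UMIs (y axis) held by its highest cells, ranked by UMIs of that gene (x axis, log scale), for 5 of the genes in each library. The 10 highest cells held 88.3% of Lcn2 UMIs in neurosphere cells, while the curves of Osmr and Stat3 rise late.

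Within cells, Il11 and Spp1 gave the highest co-detection of the pairs that could be judged, where co-detection is the number of cells with both genes over the number that the product of their shares gives. In adherent cells 53 thinned cells had both against 20.0 from the product, a ratio of 2.65 [1.99, 3.46], the highest of 17 pairs with at least 10 cells given by the product. Over all kept cells, not thinned, Spp1 was found in 14 of the 29 adherent cells with at least 10 UMIs of Il11 (48.3%), against 9.48% of the rest. Il11 was found in 20 of the 49 with at least 10 UMIs of Spp1 (40.8%), against 9.16% of the rest. In neurosphere cells, 5 of 11 cells high in Spp1 had Il11 (45.5%), against 2.42% of the rest, but 1 of 6 cells high in Il11 had Spp1 (16.7% [0.42, 64.1]), against 3.49% of the rest, and 0 cells were high in both. The high cells were deeper than the rest, with medians of 8484 (Il11) and 10250 (Spp1) against 8257 and 8234.5 UMIs in adherent cells, and of 28852.5 and 22540 against 13180.5 and 13195 in neurosphere cells. With the second gene counted after thinning, 9 of 28 adherent cells high in Il11 had Spp1 (32.1%, against 6.72%) and 11 of 45 high in Spp1 had Il11 (24.4%, against 6.34%). In neurosphere cells 2 of the 11 high in Spp1 had Il11 (18.2% [2.28, 51.8], against 1.03%) and 1 of the 6 high in Il11 had Spp1 (16.7%, against 1.69%). Spp1 and Lcn2 were together in 17 thinned adherent cells against 6.88 from the product (ratio 2.47 [1.44, 3.95]) and in 4 thinned neurosphere cells against 0.635 (ratio 6.30 [1.72, 16.1]). That pair misses the minimum of 10 cells in both libraries, as do Osmr with Lcn2 (9.78 [3.18, 22.8], 5 cells) and Il11 with Spp1 (7.77 [2.85, 16.9], 6 cells) in neurosphere cells. The neurosphere ratio of Spp1 with Lcn2 rests on 4 cells and was 0 when cells were thinned to 3000 UMIs, and without thinning 0 of the 11 cells high in Spp1 had Lcn2, which allows a share of up to 28.5% (exact interval), while 2 of the 10 high in Lcn2 had Spp1 (20% [2.52, 55.6], against 3.47%). In adherent cells 8 of the 49 high in Spp1 had Lcn2 (16.3%, against 3.22%), 4 of the 11 high in Lcn2 had Spp1 (36.4%, against 9.64%), and 3 cells were high in both. Cells high in Lcn2 were also deeper, with medians of 12738 against 8254.5 UMIs (adherent) and 18398.5 against 13188 (neurosphere). With the second gene thinned, 7 of 45 adherent cells high in Spp1 had Lcn2 (15.6%, against 2.10%). Spp1 was then in 3 of 11 adherent (27.3%, against 6.83%) and 1 of 10 neurosphere cells high in Lcn2 (10%, against 1.70%). None of the cells with at least 10 UMIs of Lcn2, 11 adherent and 10 neurosphere, had a UMI of Il11, which allows shares of up to 28.5% and 30.8% (exact intervals).

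For pairs that include Il6st, Stat3 or Socs3, the ratios given here lay between 0.63 and 1.64, and each interval includes 1. Il6st with Stat3 gave 1.19 [0.97, 1.45] in adherent and 1.18 [0.90, 1.51] in neurosphere cells, and Stat3 with Socs3 gave 1.17 [0.91, 1.48] and 1.12 [0.88, 1.40]. Il6st with Socs3 gave 1.02 [0.65, 1.54] in adherent cells and 1.64 [0.95, 2.62] in neurosphere cells, the highest of 7 pairs there. In adherent cells Il11 gave 0.70 [0.41, 1.12] with Il6st and 0.63 [0.31, 1.13] with Socs3, and in neurosphere cells it gave 0.63 [0.27, 1.24] with Stat3. Stat3 with Lcn2 gave 0.64 [0.35, 1.06] in adherent cells and 1.24 [0.66, 2.13] in neurosphere cells, and in neurosphere cells Stat3 with Spp1 gave 0.98 [0.60, 1.52] and Osmr with Stat3 1.04 [0.61, 1.66]. The intervals treat cells as independent and hold the number from the product fixed. Cells of a library share its depth and free RNA, so the intervals are no test, and these ratios are a description of 1 library each.

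**Figure D4:**
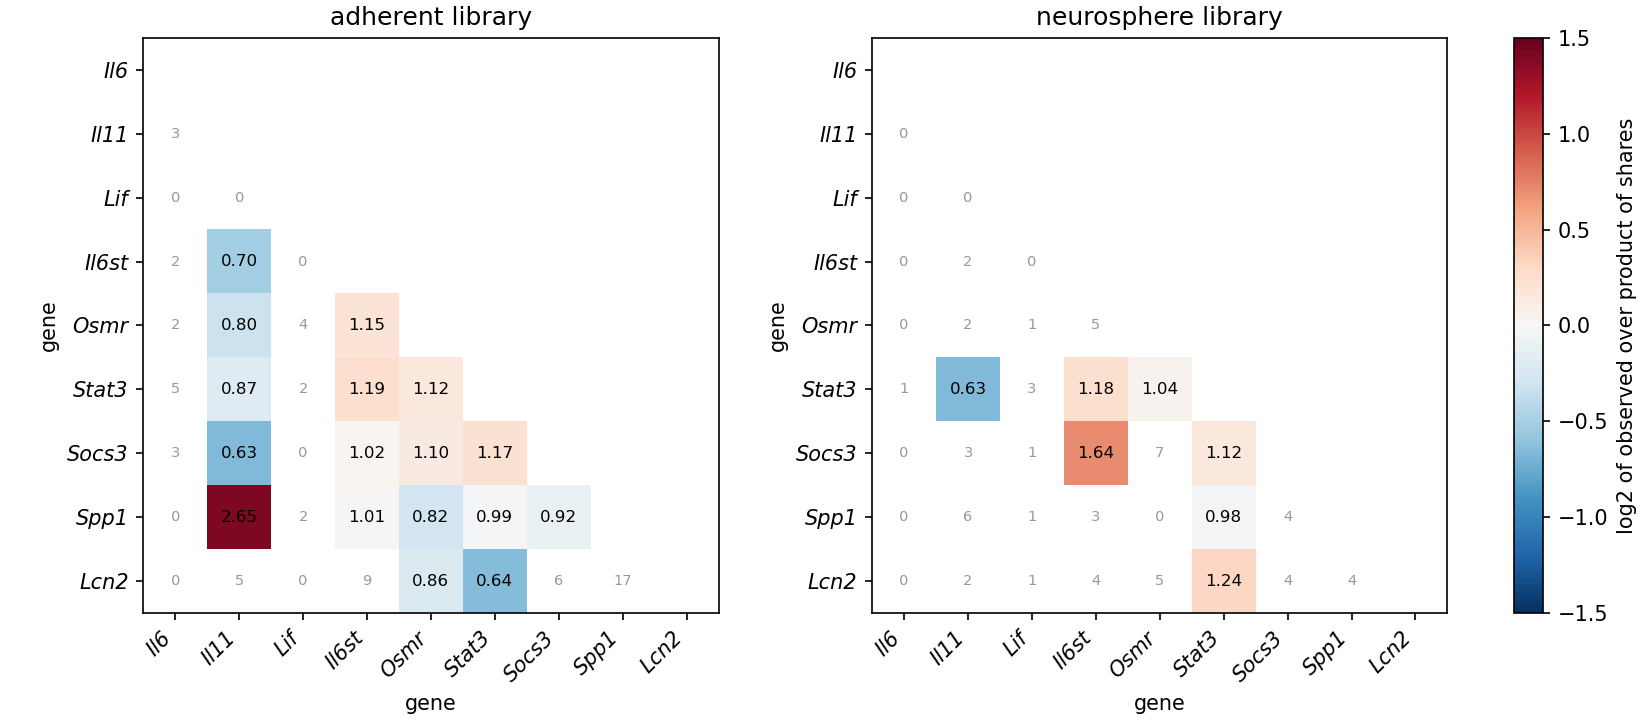
Co-detection of pairs of the 9 genes in thinned adherent (left) and neurosphere (right) cells. Colored squares give the observed number of cells with both genes over the number from the product of their shares, on a log2 color scale, for pairs with at least 10 cells from that product, and gray digits give the number of cells with both for the other pairs. Il11 with Spp1 (2.65) is the darkest square.

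Neurosphere cells with Lcn2 are described next by genes picked after their values were seen, so no theme is read from them. Of the 37 thinned cells with a UMI of Lcn2, 70.3% had a UMI of Cebpd and 81.1% of Cebpb, which encode transcription factors of the acute-phase response, against 10.2% and 36.1% of the other cells. Ier3, an early response gene, was found in 67.6% against 14.02%, and the chemokine gene Ccl20 in 21.6% (8 cells) against 0.433%. Nfkbia, which encodes the inhibitor of NF-kB, was found in 59.5% against 31.7%, while Tnfaip3 was found in 0 of the 37, which allows a share of up to 9.49% (exact interval), against 4.18%. The NF-kB targets together had 7.19 UMIs per 5000 in these cells and 1.14 in the others, of which Ccl2 (2.22 UMIs, from 4 cells) and Cxcl2 (1.24 UMIs, from 2 cells) gave a large part. In adherent cells the shares were less far apart, with Cebpd in 45 of the 100 cells with Lcn2 against 27.2% of the others, and Ier3 in 74 of the 100 against 56.2%.

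Cells with Il11 and cells with Spp1 both had more Timp1 than the others. Timp1, an inhibitor of metalloproteinases, had a mean of 5.07 UMIs per 5000 in adherent cells with Il11 and 5.41 in those with Spp1, against 2.76 and 2.72 in the others. In neurosphere cells Timp1 was found in 57.8% of cells with Il11 and in 54.2% of those with Spp1, against 27.7% and 27.5%. Clcf1 was found in 18.6% of adherent cells with Il11 against 6.66% of the others, and in 9.77% of those with Spp1 against 7.26%. Serpina3n was found in 20.7% of neurosphere cells with Osmr against 6.98%. Depth and stress also differed among neurosphere cells. Cells with Il11 had a median depth of 16071 UMIs against 13352 in the others and those with Spp1 had 16527.5 against 13326.5, while those with Socs3 had 10707.5 against 13555. Early response genes had 16.9 UMIs per 5000 in cells with Il11 against 11.4 in the others, 12.5 against 11.5 for Spp1 and 13.8 against 11.3 for Socs3. They were at 12.6 against 11.4 for Il6st, 12.4 against 11.1 for Stat3 and 19.9 against 11.4 for Lif (11 cells). For Lcn2 they were at 11.54 against 11.47, and for Osmr at 11.1 against 11.5. Fos was found in 50.4% of cells with Socs3 against 36.6%. The part of depth or of stress in these differences was not tested.

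By Pearson correlation over thinned cells, the genes most like Il11 among 7967 in adherent cells were Cited1 (r = 0.24), Vgf (0.23) and Pold4 (0.21), and those most like Spp1 were Mt3 (0.23), AA467197 (0.21) and Timp1 (0.19), with Cd63 among the 5 highest for both (0.18 and 0.16). Osmr was led by Pdzd2 (0.13) and Stat3 by Chl1 (0.11), and for Il6st and Socs3 no gene reached 0.10. In neurosphere cells Stat3 was led by Malat1 (0.18) and Socs3 by Fbxo2 (0.12). With a lower minimum of 30 positive cells, chosen after the data were seen, Lcn2 was led there by Ier3 (0.22), Il11 by Plaur (0.19), Spp1 by Tm4sf1 (0.19) and Osmr by Lpcat2 (0.12), and Tm4sf1 was among the 5 highest for Lcn2, Il11 and Spp1. The correlations are weak, rest on 4464 and 4196 cells of 1 library each, and share depth.

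Clusters made within each library, with the 9 genes left out of the clustering, placed the high cells. The neurosphere library gave 11 clusters, given by number and leading genes. Cluster 3 (led by Ifit3, S100a6, Zbp1, Cryab and Rsad2) held 10.6% of the cells and 58.2% of Spp1 UMIs, at 65.9 CPM, of which the highest cell gave 157 of 391 UMIs, so that without it the level was 39.6 CPM. Its Il11 (14.2 CPM) was 8.12 CPM without its highest cell, which put it below cluster 5, and its Lif (2.02 CPM, 12 UMIs) was not apart from that of cluster 10 (1.98 CPM, 3 UMIs). Cluster 10 (Cox6a2, Nupr1, Tenm4, B930059L03Rik and Gm26766), with 3.30% of the cells, had Lcn2 at 185.8 CPM, of which 1 cell gave 214 of 281 UMIs, and 44.9 CPM without that cell. Cluster 3 (49.7 CPM) and cluster 5 (38.3 CPM) were at 23.2 and 23.02 CPM without their highest cells, and 3 cells gave 253 of 295 and 356 of 387 UMIs there. Lcn2 was found in 6.52% of thinned cells of cluster 10, 2.46% of cluster 3 and 2.49% of cluster 5. Osmr was at 7.93 CPM in cluster 10, from 12 UMIs, with an interval that overlaps that of cluster 3 (5.73 CPM). Cluster 5 (Fbn2, Steap3, Ociad2, Phlda2 and Lpcat2) had Il11 at 11.9 CPM (10.6 CPM without its highest cell), and its median depth of 20935 UMIs was the highest of the clusters. Lcn2 was found in 0 of 303 thinned cells of cluster 7 (Enpp2, Mbp, Gm4876, Lsamp and Lhfpl3), which allows a share of up to 1.21% (exact interval). It was also found in 0 of 182 of cluster 9 (up to 2.01%), and in 1 thinned cell each of clusters 0, 1, 2, 4, 6 and 8.

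Clusters 3, 5 and 10, grouped after their values were seen, held 24.2% of the neurosphere cells and 27.01% of their UMIs. They held 97.6% of Lcn2 UMIs, 87.0% of Il11, 84.5% of Spp1, 82.1% of Lif (23 of 28) and 54.5% of Osmr UMIs, with all 10 cells high in Lcn2, all 6 high in Il11 and 10 of the 11 high in Spp1. Their shares of positive cells were 77.2% for Lcn2 (44 of 57), 71.3% for Il11 (77 of 108) and 60% for Spp1 (90 of 150), and were 78.3% for Lif (18 of 23) and 52.9% for Osmr. Cluster 10 added little for Il11 (1.98 CPM, 3 UMIs), and its Spp1 was at 25.1 CPM, or 8.65 CPM without its highest cell. Without the highest cell of each gene, the shares of UMIs were 96.9% for Lcn2, 84.7% for Il11, 79.8% for Spp1 and 79.2% for Lif. Stat3, at 24.7%, and Il6st, at 28.8%, were near the share of all UMIs, and Socs3 was at 36.2%. The level of Lcn2 was 54.9 CPM in the 3 clusters and 0.506 CPM in the rest, and that of Il11 was 11.8 and 0.654 CPM. Without the cells with at least 10 UMIs of the gene, the level in the 3 clusters was 5.24 CPM for Lcn2 and 6.62 CPM for Il11. Stat3 was highest in cluster 7 (111.9 CPM), not apart from clusters 0 (101.2 CPM) and 10 (86.6 CPM) by their intervals, and lowest in cluster 5 (42.9 CPM), not apart from clusters 2 (43.1 CPM) and 4 (47.5 CPM). Socs3 was at 22.8 CPM in cluster 0 (Comp, Pdzd2, Rgs16, Myzap and Nrtn) and 22.3 CPM in cluster 3. It was lowest at 5.11 CPM in cluster 6 (Aspm, Pif1, Mki67, Kif18b and Gm3550), not apart by intervals from several others such as cluster 2 (5.95 CPM).

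In the adherent library, which gave 10 clusters, Il11 and Spp1 were highest in the same cluster, for Spp1 with an interval that overlaps that of cluster 0. Cluster 2 (Mt3, Slc47a1, Slc30a4, Ackr3 and Gadd45a; 14.4% of the cells) had the highest Il11 (74.3 CPM), Spp1 (124.6 CPM) and, with cluster 3 (Ube2c, Gm13889, H2afx, Aurka and Ubald2), Lcn2 (19.6 CPM in each), which was not apart by intervals from clusters 6 (17.5 CPM), 9 (16.4 CPM, 3 UMIs) and 5 (14.99 CPM). Without the highest cell of the gene, Il11 in cluster 2 was at 68.3 CPM, and Lcn2 was at 16.6 CPM in cluster 2 and 13.5 CPM in cluster 3. In clusters 6 and 5, where 1 cell gave 25 of 54 and 28 of 58 UMIs, Lcn2 was then at 9.40 and 7.77 CPM. Spp1 was at 108.4 CPM in cluster 0, led by histone genes. Without the highest cell it was at 102.7 CPM in cluster 2 and 80.2 CPM in cluster 0, and without the 3 highest cells, which gave 249 of 616 and 456 of 836 UMIs, it was at 74.9 and 49.5 CPM. Spp1 was lowest at 10.4 CPM in cluster 4 (Cdc20, 2610035D17Rik, Erbb3, Cdkn3 and Has2). Osmr (158.1 CPM), Stat3 (179.9 CPM) and Il6st (49.1 CPM) were highest in cluster 9, which had 59 cells, a median of 2734 UMIs and 10.4% mitochondrial UMIs, and gave only 29, 33 and 9 UMIs of them. The part of cell quality in this was not tested. Outside it, the highest clusters were cluster 5 (Col2a1, Mbp, Gas7, Lhfpl3 and F3) for Osmr (60.7 CPM) and Stat3 (63.8 CPM), with intervals that overlap those of clusters 6 (50.8 CPM) and 2 (49.8 CPM) for Osmr and of cluster 2 (60.9 CPM) among others for Stat3. Cluster 3 was the lowest for Osmr (21.4 CPM), Stat3 (33.1 CPM) and Il6st (7.68 CPM), with overlap of cluster 8 for Osmr and of clusters 7 and 0 for Stat3. The barcodes that the cell filter left out, with median mitochondrial shares of 48.8% and 87.0%, had 55 UMIs of Osmr in the adherent and 1 in the neurosphere library (140.3 and 1.74 CPM), while Spp1 was at 51.0 and 45.2 CPM and Il11 at 15.3 and 8.70 CPM, each with overlapping intervals.

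**Figure D5:**
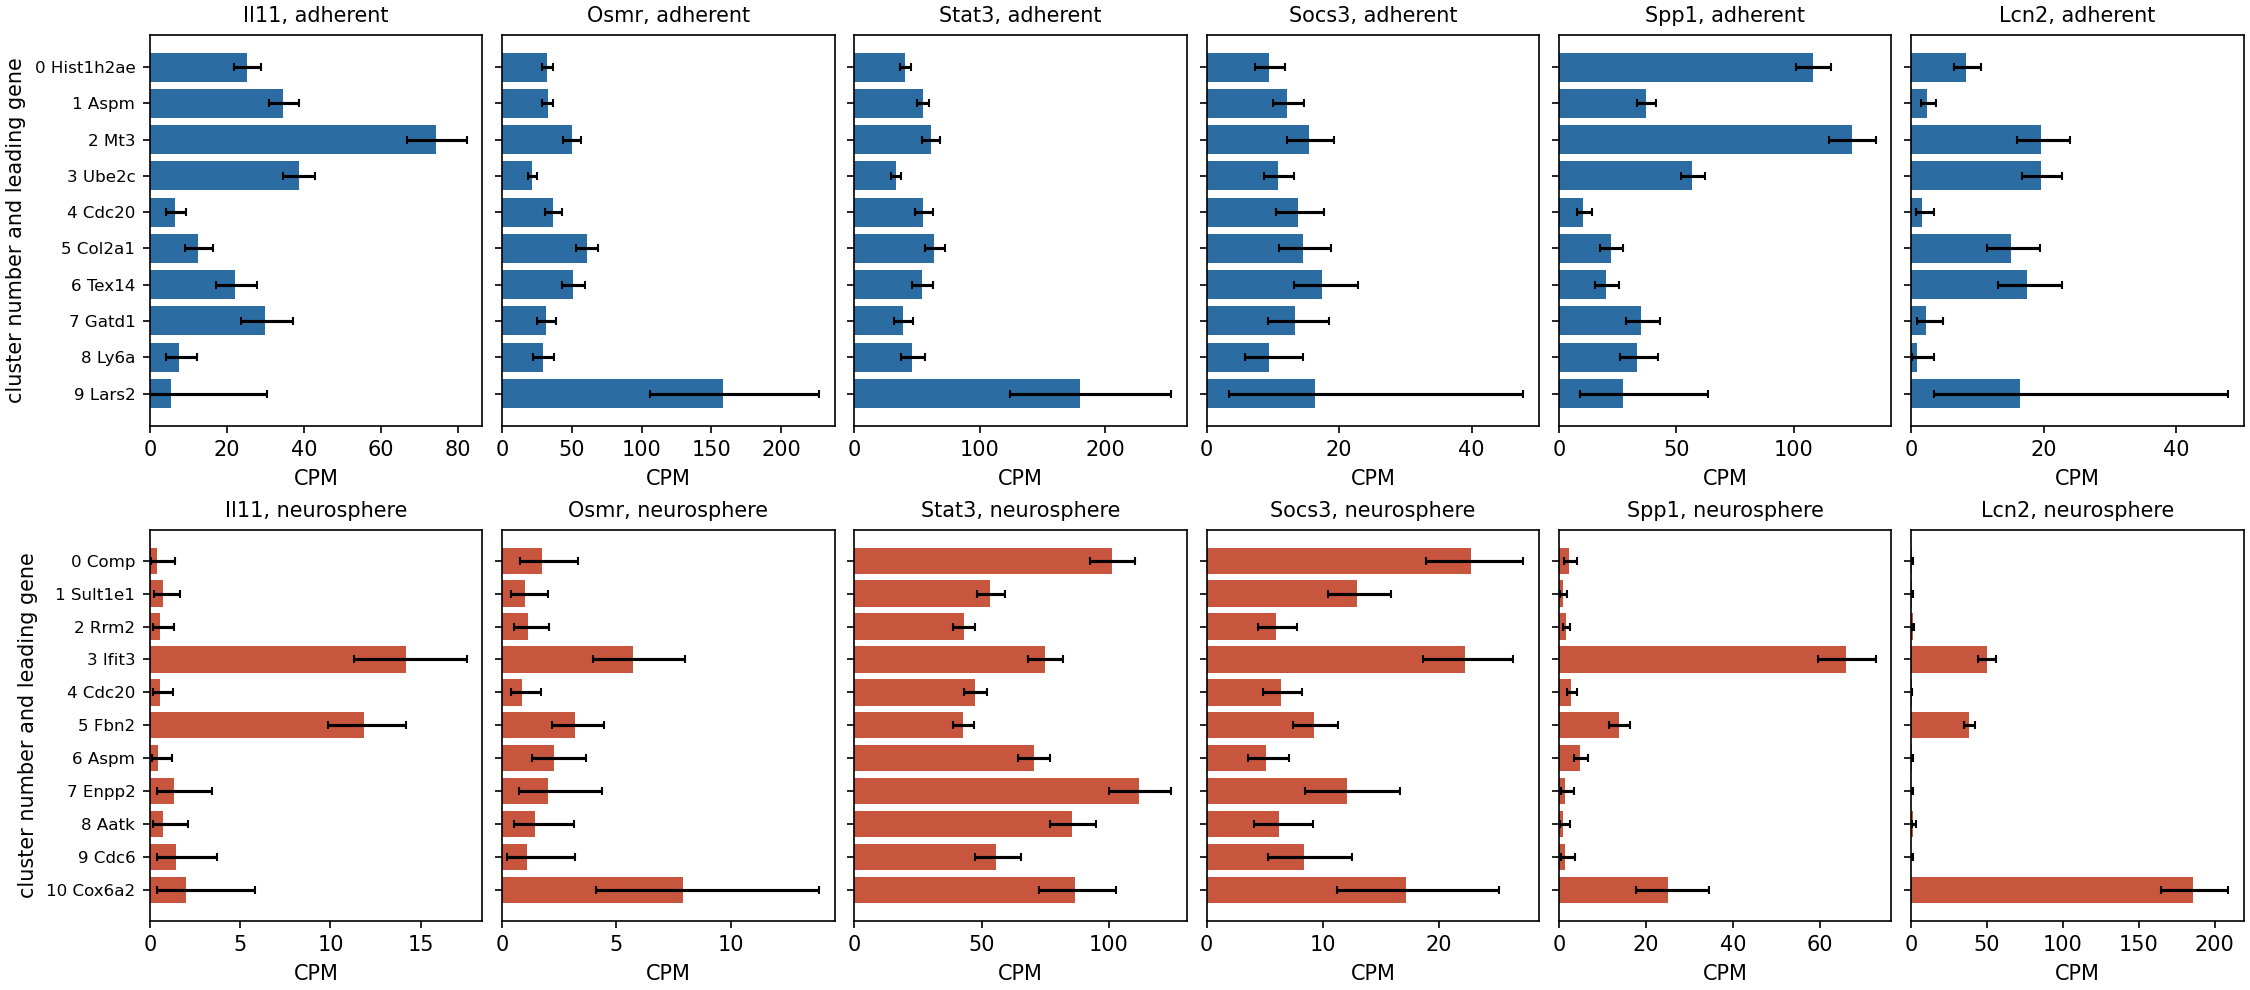
CPM of 6 of the genes in each cluster of the adherent (blue, top) and neurosphere (red, bottom) library, with Poisson 95% intervals for counting error; clusters carry their number and leading gene, and each panel has its own axis. Neurosphere bars are highest in clusters 3, 5 and 10 for Lcn2 and Spp1 and in clusters 3 and 5 for Il11, where cluster 10 is at 1.98 CPM from 3 UMIs, and the wide intervals of adherent cluster 9 rest on 59 cells.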

How the data were processed

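The authors deposited, for 1 adherent and 1 neurosphere library, raw UMI counts per gene and called cell, without normalization. The submitters' processing notes name Cell Ranger 7.0.1 and mm10. The annotation release and the setting for reads in introns are not given in the sources used here. The study's limits were applied: 13 mitochondrial and 101 ribosomal genes were removed, then cells under 1000 UMIs and under 1250 (adherent) or 2250 (neurosphere) genes. This is the order in which its Methods name the steps, and kept 5051 and 4276 cells. Its Results name the cell filter first, and that order, run as an alternative, kept 5073 and 4300, which are the numbers of cells the study states. UMIs were summed over kept cells and divided by their total to give CPM. Log2 fold changes have exact conditional, levels exact Poisson and shares exact (Clopper-Pearson) binomial 95% intervals. Co-detection ratios have the binomial interval of the number of cells with both genes, divided by the number from the product. Fold changes were counted for genes with 50 or more UMIs in both libraries together, with 3 counts as the floor where a library had 0. Kept cells were also thinned to 5000 UMIs, which shallower cells (587 adherent, 80 neurosphere) could not enter. As both libraries come from one line, shares of cells have no blank from another cell type.

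Clusters were made in Seurat 5.3.0 (R 4.3.3) on 2000 variable genes less the members, with 17 (adherent) and 18 (neurosphere) PCs and a resolution of 1. Doublets were not removed, and cells over the 95th percentile of UMIs were left out as an alternative. TMM factors came from edgeR 4.0.16, the rest from scipy 1.17.1, numpy 2.4.6, matplotlib 3.10.9 and pandas 2.3.3 under Python 3.11.15. The scripts were tested on simulated data. Positions come from GENCODE M21 on GRCm38. Genes named are the 9 members, up to 3 highest and 3 lowest of each list, the genes most like a member, and pairs at either end of the co-detection range. Ctf1, Il11ra1, Itgb1, Cd44, Pias3, Cebpb, Cebpd, genes in cells with a member, neurosphere clusters 3, 5 and 10 as a group, levels without the highest cells of a cluster, and thinned shares of the high cells were chosen after values were seen. Members and lists were chosen with earlier results of these data known. Some genes of the lists are not reported here and are left out of the counts and medians of their lists.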

Additional observations from a re-analysis of the deposited data

How the results depend on the processing

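Over 11 other settings of the cell filter, scaling, thinning, weighting and pseudocount, log2 fold changes stayed between -3.46 and -2.78 for Il11, between -4.27 and -3.55 for Osmr, between -2.68 and -2.21 for Spp1, between -1.15 and -0.71 for Il6st and between 0.15 and 0.58 for Stat3. Il6 ranged from -4.41 to -1.0001, the last with 1 CPM added, and Lif from -0.15 (TMM) to 0.55 (thinned). Lcn2 ranged from 0.25 to 0.87 under these settings. It was -1.31 with UMIs of a gene capped at 10 per cell, a setting chosen after seeing the data. Socs3 was 0.0022 with the total taken over all genes, mitochondrial and ribosomal ones included. TMM scaling lowers every log2 fold change by 0.22, and that total raises every one by 0.22. The number of genes over 2-fold lower was 3 to 5, and 0 were over 2-fold higher under each setting. The co-detection ratio of Spp1 and Lcn2 was 5.17 in adherent cells when at least 2 UMIs of a gene were asked for (6 cells), and 0 in neurosphere cells thinned to 3000 UMIs (0 cells). Without thinning it was 2.07 and 4.001, and with another random seed 2.44 and 3.24. The causes were not tested. No paired analysis was possible because each culture has 1 library, and for the same reason no replicate could be left out. Depth leaves wide counting intervals for Il6, Lif and pairs of genes with few cells.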
